A study of Homo sapiens with 6 samples.

Results

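The NBPF copy family was examined as 10 rows of the gene table, those whose Ensembl identifiers carry the symbols NBPF1, NBPF3, NBPF8, NBPF9, NBPF10, NBPF11, NBPF12, NBPF14, NBPF15 and NBPF19, of 60960 features in all. The family was selected on measured values of this same comparison of siGFPT2 and siNC, in which NBPF14 stood apart from its copies, so differences between the groups are described here and are not offered as independent evidence. The libraries come from NCI-H1975, an established line from a human lung tumour (non-small cell type), sequenced in bulk after mRNA enrichment. There are 3 libraries labelled siGFPT2 (a small interfering RNA against GFPT2) and 3 labelled siNC (a control small interfering RNA), and the stated aim was to find genes expressed differently between them. The extraction text also mentions almonertinib, EGF and knockdown of EGFR, which no treatment label carries. Nothing in the labels says that replicates came from separate cultures, so their spread may be technical. In a bulk sample, fewer cells expressing a gene and less RNA per cell cannot be told apart.

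NBPF genes, named after a member that was interrupted by a translocation in a patient with neuroblastoma, encode proteins built largely from tandem repeats of the Olduvai domain, formerly called DUF1220. The family expanded in primates through duplication of blocks of chromosome 1, and many copies lie close to the centromere among other duplicated genes, such as the NOTCH2NL genes. The cellular roles of single members are poorly known, NBPF1 being the copy interrupted in that patient. Because copies resemble each other, a short read may match several of them, and how such reads were counted is not given in the sources used here.

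In GENCODE 29 (GRCh38), all 10 members lie on chromosome 1. NBPF1 (16562319 to 16613562, minus strand) and NBPF3 (21440128 to 21485005, plus strand) lie far from the others on the short arm. NBPF8 (120436353 to 120467739, plus strand), annotated as an unprocessed pseudogene, is followed by NBPF15 (144421386 to 144461674, minus), NBPF10 (146064699 to 146144804, minus) and NBPF12 (146938744 to 146996202, plus). The last 4 in order of position are NBPF11 (148102046 to 148152322, minus), NBPF14 (148531385 to 148679751, minus), NBPF9 (149054027 to 149103561, minus) and NBPF19 (149390623 to 149556361, plus). The deposited table gives 1 value per gene over its exons and carries no coordinates of its own. Exons of NBPF10 share 2286 bases with AC239799.1 on the same strand, and those of NBPF15 and NBPF3 share 251 and 245 bases with profilin pseudogenes on the opposite strand.

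The annotated start regions of the members show how alike some copies are. RefSeq promoter windows (GRCh38.p14, 250 bases before to 50 after the annotated start) were found for all 10 members, in 12 windows. Shown here are the 3 pairs or groups in which windows are almost the same, since they set members that moved together beside members that did not. Capitals mark bases that mismatch the first sequence of the group in a pairwise alignment, while gaps and overhanging ends are left in lower case. The first group is NBPF15, NBPF9 and NBPF8 (the first of its 2 windows).
NBPF15 (chr1:144461620-144461919, minus strand): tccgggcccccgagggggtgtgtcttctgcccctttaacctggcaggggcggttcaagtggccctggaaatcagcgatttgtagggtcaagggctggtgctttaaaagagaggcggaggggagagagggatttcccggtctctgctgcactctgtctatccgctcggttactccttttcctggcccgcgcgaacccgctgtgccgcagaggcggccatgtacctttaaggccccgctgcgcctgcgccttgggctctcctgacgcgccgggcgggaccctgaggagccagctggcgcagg
NBPF9 (chr1:149103502-149103801, minus strand): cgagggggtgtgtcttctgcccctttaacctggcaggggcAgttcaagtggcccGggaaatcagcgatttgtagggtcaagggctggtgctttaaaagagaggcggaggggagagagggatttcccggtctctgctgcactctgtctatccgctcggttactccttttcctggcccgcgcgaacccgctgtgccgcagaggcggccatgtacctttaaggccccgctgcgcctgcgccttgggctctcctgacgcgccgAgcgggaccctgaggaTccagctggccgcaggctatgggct
NBPF8 (chr1:120414777-120415076, plus strand): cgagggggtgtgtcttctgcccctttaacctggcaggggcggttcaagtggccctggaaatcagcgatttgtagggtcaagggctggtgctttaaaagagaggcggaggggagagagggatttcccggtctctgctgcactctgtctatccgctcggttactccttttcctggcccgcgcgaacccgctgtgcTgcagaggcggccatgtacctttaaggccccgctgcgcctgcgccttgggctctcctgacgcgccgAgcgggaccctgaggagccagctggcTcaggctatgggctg
NBPF9 was identical to NBPF15 at 286 of 290 aligned bases and NBPF8 at 287 of 290. The next pair is NBPF10 and NBPF14 (its first window).
NBPF10 (chr1:146144755-146145054, minus strand): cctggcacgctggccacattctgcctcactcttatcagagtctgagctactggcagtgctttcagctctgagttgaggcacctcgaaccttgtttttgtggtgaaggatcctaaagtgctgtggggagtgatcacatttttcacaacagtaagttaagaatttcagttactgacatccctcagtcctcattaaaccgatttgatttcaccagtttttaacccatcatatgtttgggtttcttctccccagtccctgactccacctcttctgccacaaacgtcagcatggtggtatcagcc
NBPF14 (chr1:148595668-148595967, minus strand): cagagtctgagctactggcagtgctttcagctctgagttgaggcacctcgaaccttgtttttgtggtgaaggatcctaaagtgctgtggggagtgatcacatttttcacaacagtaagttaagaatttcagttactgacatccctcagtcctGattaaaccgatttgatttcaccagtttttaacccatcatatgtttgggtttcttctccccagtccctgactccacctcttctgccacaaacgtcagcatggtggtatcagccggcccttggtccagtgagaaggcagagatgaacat
These windows matched at 264 of 265 aligned bases, while NBPF14 aligned with those of NBPF15, NBPF9 and NBPF8 over 13 to 30 bases. The RefSeq window of NBPF8 lies upstream of the GENCODE 29 gene, since the annotations place the starts differently. Those of NBPF14 and NBPF19 lie inside their GENCODE 29 genes, so they may not be compared like for like with windows at gene starts. The last pair is NBPF11 and NBPF12.
NBPF11 (chr1:148152232-148152531, minus strand): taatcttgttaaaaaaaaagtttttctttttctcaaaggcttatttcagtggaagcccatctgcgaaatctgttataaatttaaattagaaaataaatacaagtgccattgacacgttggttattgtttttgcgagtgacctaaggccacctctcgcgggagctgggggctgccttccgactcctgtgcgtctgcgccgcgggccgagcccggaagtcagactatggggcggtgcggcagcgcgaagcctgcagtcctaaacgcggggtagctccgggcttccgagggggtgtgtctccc
NBPF12 (chr1:146938074-146938373, plus strand): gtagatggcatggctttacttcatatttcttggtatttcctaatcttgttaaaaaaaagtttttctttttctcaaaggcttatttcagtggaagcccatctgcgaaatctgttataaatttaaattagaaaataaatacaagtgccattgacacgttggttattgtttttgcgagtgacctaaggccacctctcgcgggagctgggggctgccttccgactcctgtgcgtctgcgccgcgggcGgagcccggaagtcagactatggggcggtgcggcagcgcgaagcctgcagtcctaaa
This pair matched at 259 of 260 aligned bases. CpG dinucleotides numbered 22, 21 and 19 in the windows of NBPF15, NBPF9 and NBPF8, and 4 in each of the windows of NBPF10 and NBPF14. Those of NBPF11 and NBPF12 held 20 and 16. Of the windows not shown, NBPF1 had 26, NBPF3 24 and NBPF19 2. For NBPF14 and NBPF19, whose windows lie inside their GENCODE 29 genes, the counts may not be those of the start of transcription. The median was 14 over the 35116 windows of the RefSeq table. At least 19 CpGs were held by 42.9% of all windows and at most 4 by 29.6%.

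Transcript sequences also overlapped between copies, though to very different degrees. Of the distinct 50-base words in the GENCODE 29 transcripts of NBPF14, 80.6% occurred in transcripts of another of the 10 members, and 1074 words (15.8%) occurred in no other gene of the annotation on the same strand. NBPF10 was the most shared member, at 82.4%, followed by NBPF14. The shares were 71.4% to 73.8% for NBPF8, NBPF11 and NBPF12, 60.6% for NBPF15, 48.2% for NBPF9 and 42.7% for NBPF19. NBPF1 and NBPF3 were the most distinct, with 19.8% and 7.9%. NBPF14 shared the most words with NBPF10 (4022) and the fewest with NBPF3 (146). It also shared 2519 with AC239799.1, the gene whose exons overlap those of NBPF10, 882 with NOTCH2NLA and 468 with NOTCH2. NBPF10 shared 2117 with AC239799.1. NBPF19 shared 1951 with AC239799.1, 4149 with NOTCH2NLA and 3641 with NOTCH2.

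Library facts that touch the family were as follows. Depth was 22198121 to 27234880 counted fragments in siGFPT2 and 21899321 to 24493042 in siNC. GFPT2, the gene targeted, stood at 8.942, 7.575 and 8.722 FPKM (counted fragments scaled by gene length and by library depth) in siGFPT2, against 10.13, 9.305 and 8.285 FPKM in siNC, so the groups overlapped and siGFPT2 denotes the label below. siGFPT2 library 2 and siNC library 3 stood apart from the other 4. Features of at least 5000 bases took 46.2% and 44.3% of their reads, against 51.7% to 52.8% in the others, and ribosomal protein genes took 6.67% and 7.58%, against 4.37% to 4.91%. All 8 epithelial markers, such as EPCAM and the keratins, were measured above 1 FPKM on average. Of the markers of other cells, COL1A1 and CD14 passed that level (1 of 5 fibroblast and 1 of 5 immune genes, with MS4A1 at 0 in all libraries and COL3A1 at 0.879 FPKM in siGFPT2 1 and at most 0.02 FPKM in the others), as did 0 of 4 endothelial genes. Summed fibroblast markers ran from 6.77 to 10.07 FPKM in siGFPT2 and 6.37 to 7.89 in siNC, and summed immune markers from 1.94 to 2.63 in siGFPT2 and 2.16 to 3.30 in siNC.

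NBPF14 was the 1 member whose libraries did not overlap between the groups. It stood at 2.68, 2.48 and 2.40 FPKM in siGFPT2 libraries 1, 2 and 3, against 1.33, 1.36 and 1.75 FPKM in siNC libraries 1, 2 and 3. These values rested on 731, 810 and 639 reads in siGFPT2 and 353, 358 and 514 in siNC, recovered from the steps of the FPKM values with a length of 11985 bases (12116 in GENCODE 29). The lowest siGFPT2 library lay above the highest siNC library, and siNC 3 lay above the other siNC libraries. The exact 95% Poisson interval was 2.219 to 2.596 FPKM for siGFPT2 3 and 1.603 to 1.909 FPKM for siNC 3. Such intervals cover counting error only, not the spread between libraries. NBPF14 averaged 2.52 ± 0.146 FPKM in siGFPT2 and 1.48 ± 0.233 FPKM in siNC (SD, n = 3 each). After adding 0.1 to each FPKM, a step that shrinks differences at low levels, the log2 fold change was 0.74 ± 0.16 (SE; 95% interval 0.365 to 1.11), or 1.67-fold.

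The test across all features called neither NBPF14 nor another member. Over the 12896 features averaging 1 FPKM or more, limma with Benjamini-Hochberg adjustment called 0 at an adjusted p of 0.05 (0%), with 84 at an unadjusted p under 0.05, and limma-voom on recovered reads also called 0, with 60. Of the 10 members, 8 passed the filter and 0 of the 8 were called, while NBPF10 and NBPF19 lay below it. NBPF14 had an adjusted p of 0.9999 by limma, with siGFPT2 higher in 3 of 3 libraries. Groups that did not overlap with siGFPT2 higher were found for 2.16% of the features tested (3.53% in either direction), and for 1 of the 8 members. That member was among the known values when the family was chosen, so nothing is read from the count. When siGFPT2 2 and siNC 3 were left out, 751 of 12896 features had an unadjusted p under 0.05 by limma. By limma-voom 866 of 12895 did, with 0 called in either fit. If no feature differed, a share near 0.05 would be expected under that cut-off, so no difference is read from these counts. The 0 called with all libraries does not show that no feature differs.

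**Figure D1:**
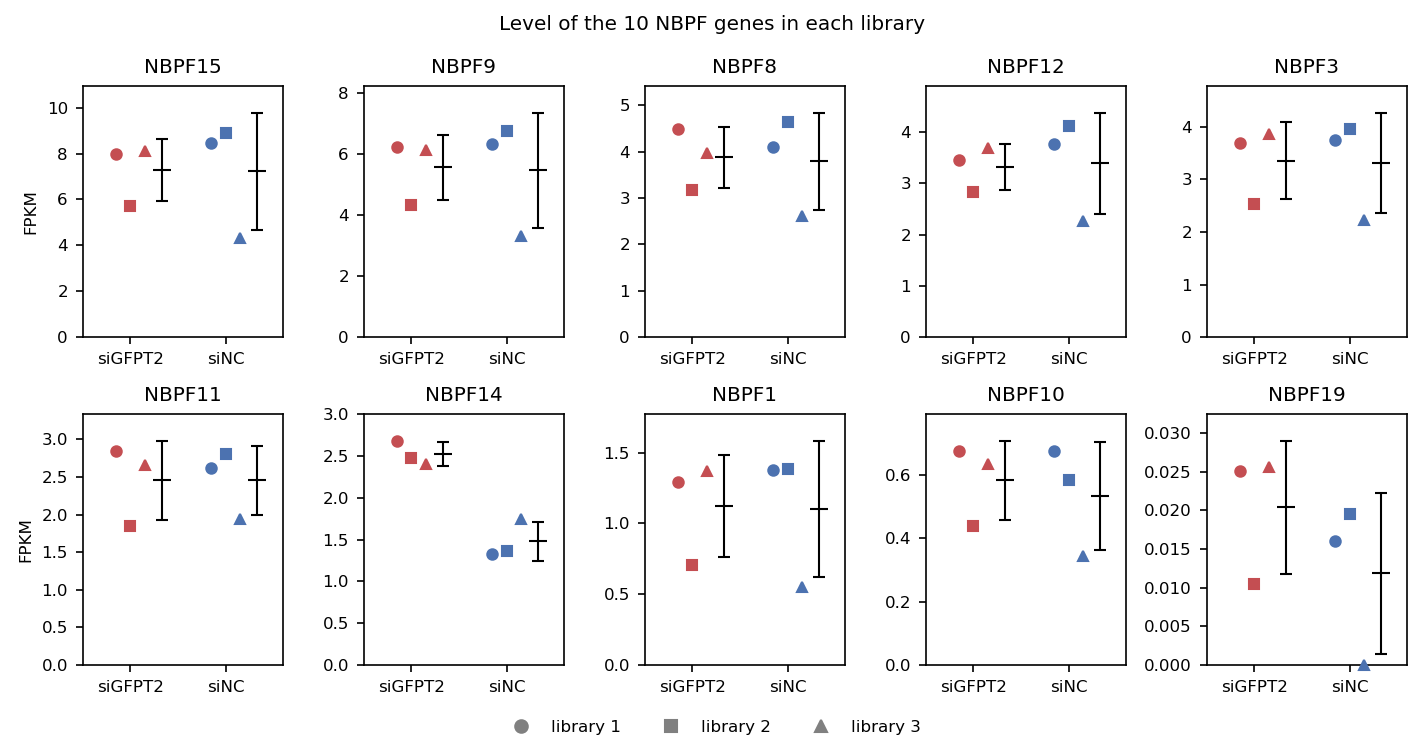
FPKM of each of the 10 NBPF genes (vertical axes, a separate scale per gene) in the 3 siGFPT2 (red) and 3 siNC (blue) libraries, with marker shapes for libraries 1, 2 and 3 and black bars for mean ± SD. In NBPF14 the siGFPT2 libraries sit at 2.40 to 2.68 FPKM, all above the siNC libraries at 1.33 to 1.75, while in the other panels the groups overlap and siGFPT2 library 2 and siNC library 3 are the low ones.

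The most abundant members had groups that overlapped and libraries that differed within each group. NBPF15 stood at 7.98, 5.73 and 8.12 FPKM in siGFPT2 and at 8.48, 8.91 and 4.30 FPKM in siNC. NBPF9 stood at 6.23, 4.35 and 6.14 FPKM in siGFPT2 and at 6.34, 6.77 and 3.31 FPKM in siNC. In both genes siNC 3 was lowest and siGFPT2 2 next, and the other 4 libraries lay close together. NBPF15 averaged 7.28 ± 1.34 FPKM in siGFPT2 and 7.23 ± 2.54 in siNC (SD, n = 3 each), a log2 fold change of 0.06 (95% interval -0.652 to 0.777). For NBPF9 the fold change was 0.07 (-0.632 to 0.775). The 2 genes share 2541 words, 46.5% of those of NBPF15, and kept nearly 1 ratio in all 6 libraries: NBPF9 stood at 0.781, 0.759 and 0.756 of the NBPF15 level in siGFPT2, and at 0.748, 0.761 and 0.770 of it in siNC.

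NBPF8, NBPF12 and NBPF3 had the same low libraries, while the order of the other 4 varied between genes. NBPF8 stood at 4.49, 3.19 and 3.98 FPKM in siGFPT2 and at 4.10, 4.65 and 2.62 FPKM in siNC. NBPF12 stood at 3.45, 2.82 and 3.69 FPKM in siGFPT2 and at 3.77, 4.13 and 2.27 FPKM in siNC. NBPF3 stood at 3.68, 2.52 and 3.87 FPKM in siGFPT2 and at 3.75, 3.97 and 2.22 FPKM in siNC. Again siNC 3 was lowest and siGFPT2 2 second lowest in each gene, although NBPF3 shares little sequence with the others. Their log2 fold changes were 0.06 (95% interval -0.511 to 0.63), 0.01 (-0.569 to 0.584) and 0.04 (-0.599 to 0.675).

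NBPF11 and NBPF1 showed the smallest and the largest drop in siNC 3 among the 7 tested copies other than NBPF14. NBPF11 stood at 2.85, 1.85 and 2.66 FPKM in siGFPT2 and at 2.62, 2.80 and 1.94 FPKM in siNC, so that siGFPT2 2 was its lowest library. NBPF1, the copy interrupted in a patient with neuroblastoma, stood at 1.29, 0.710 and 1.37 FPKM in siGFPT2 and at 1.38, 1.38 and 0.548 FPKM in siNC. The groups overlapped in both genes. Their log2 fold changes were -0.01 (-0.527 to 0.515) and 0.07 (-0.881 to 1.03), the widest interval being that of NBPF1.

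The 2 members below the filter are described by their reads. NBPF10, the copy closest to NBPF14 in shared sequence, stood at 0.674, 0.440 and 0.634 FPKM in siGFPT2 (220, 172 and 202 reads) and at 0.674, 0.585 and 0.344 FPKM in siNC (214, 184 and 121 reads). It was lowest in siNC 3 and siGFPT2 2, as the abundant copies were, and its groups overlapped. NBPF19 had 8, 4 and 8 reads in siGFPT2 and 5, 6 and 0 in siNC. At a count of 0 in siNC 3, a level of up to 0.00872 FPKM (3 reads) could not be detected, and no fold is given for NBPF19.

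By level per length, over the 6 libraries, the members ranked NBPF15 (mean 7.25 FPKM), NBPF9 (5.52), NBPF8 (3.84), NBPF12 (3.35), NBPF3 (3.34), NBPF11 (2.45), NBPF14 (2.00), NBPF1 (1.11), NBPF10 (0.558) and NBPF19 (0.0161). NBPF15, NBPF9 and NBPF8 kept this order in each of the 6 libraries. NBPF12 and NBPF3 did not differ beyond their spread, NBPF12 being higher in 4 libraries and NBPF3 in 2. NBPF14 lay below NBPF11 in every library other than siGFPT2 2. The levels assume that reads were assigned to the right copy, which was not tested.

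Whether a shift in 1 copy was mirrored in the others was followed library by library. Each member's log2(FPKM + 0.1) was set against its own mean over the 6 libraries. All 7 tested members other than NBPF14 were below their mean in siGFPT2 2 and siNC 3 and above it in the other 4 libraries. NBPF14 instead was 0.46, 0.35 and 0.30 above its mean in siGFPT2, and stood at -0.50, -0.47 and -0.13 in siNC. Profiles were then compared by the root mean square distance between 2 members over the 6 libraries. The 7 pairs with NBPF14 had distances of 0.493 to 0.671, and the 21 pairs without it had 0.02 to 0.269, the smallest being that of NBPF9 and NBPF15. Members share libraries and may share reads, so no test was applied to these distances.

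**Figure D2:**
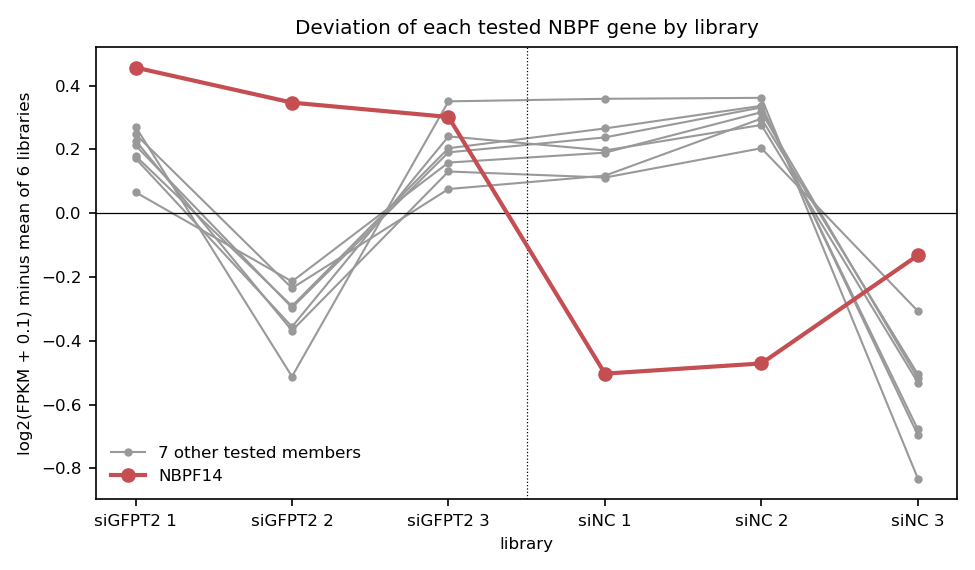
Log2(FPKM + 0.1) minus the mean of the 6 libraries (vertical axis) in each library (horizontal axis, siGFPT2 left of the dotted line) for NBPF14 (red) and the 7 other tested members (grey). The grey lines dip together in siGFPT2 2 and siNC 3, whereas NBPF14 is above 0 in the 3 siGFPT2 libraries and below it in the 3 siNC libraries.

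The dip shared by the copies was seen in 1 library of each group, siGFPT2 2 and siNC 3. In siGFPT2 2 the 7 members differed from the mean of siGFPT2 1 and 3 by -0.823 to -0.327 on the log2 scale, with a median difference of -0.50. In siNC 3 they differed from the mean of siNC 1 and 2 by -1.193 to -0.465, with a median difference of -0.77. NBPF14 differed by -0.03 and 0.35 in the same comparisons. All 10 members are long, with 5306 to 14362 bases behind their FPKM. Over the 5743 tested features of at least 5000 bases, the median differences were -0.23 (5th to 95th percentile -0.789 to 0.25) in siGFPT2 2 and -0.30 (-1.122 to 0.423) in siNC 3, and 76.5% and 74.1% of them lay below 0. The copies thus moved in the direction of most long features, NBPF1 beyond the 5th percentile in both libraries. The part that library composition plays in the dip was not tested.

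Leaving out siGFPT2 2 and siNC 3 narrowed the intervals of the copies. Among siGFPT2 1 and 3 against siNC 1 and 2, NBPF14 had a log2 fold change of 0.87 (95% interval 0.522 to 1.212). Its adjusted p by limma was 0.7196, and the family was chosen with its values known. The 7 other members ran from -0.14 for NBPF12 (-0.406 to 0.124) to 0.02 for NBPF11 (-0.267 to 0.309), with 6 of 7 below 0 and every interval including 0. The median over all 12896 features was 0.03 in that comparison, with 5th and 95th percentiles of -0.221 and 0.332, and 43.0% lay below 0. Members share libraries and may share reads, so nothing is read from the count of members below 0. Between siGFPT2 2 and siNC 3, 1 library each and so without a replicate check, NBPF14 differed by 0.48 and the others by -0.06 to 0.41, against a median of 0.09 over the long features. With all 6 libraries the median log2 fold change of the 8 tested members was 0.06, against 0.03 over all features tested. It changed sign to -0.002 with quantile normalization, to -0.23 without siNC 3, to -0.03 without siGFPT2 1 and to -0.05 without siGFPT2 3, and was 0.22, 0.18 and 0.24 without siGFPT2 2, siNC 1 and siNC 2, so no direction is given for the family.

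**Figure D3:**
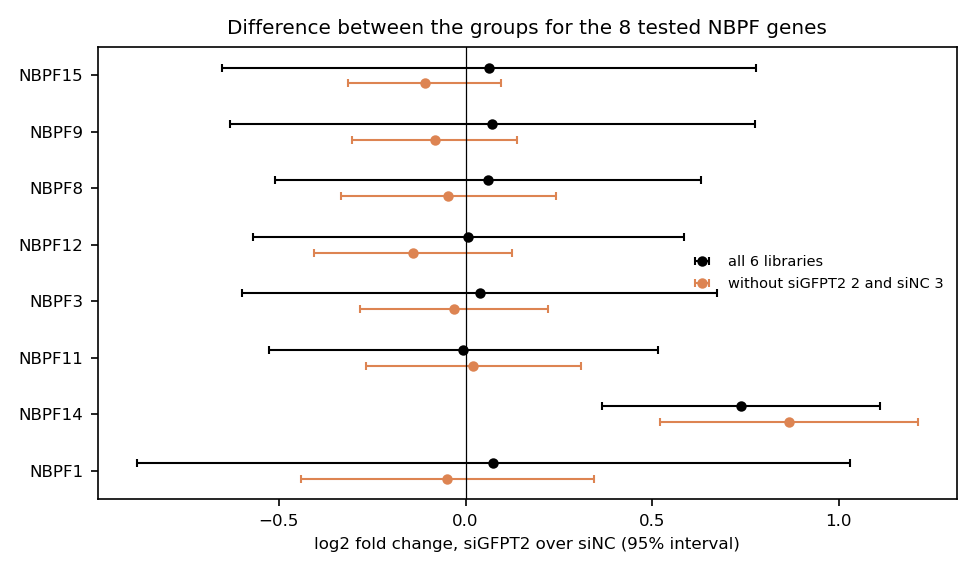
Log2 fold change, siGFPT2 over siNC (horizontal axis), with its 95% interval from limma for the 8 tested members, with all 6 libraries (black) and without siGFPT2 2 and siNC 3 (orange). NBPF14 lies at 0.74 and 0.87 with intervals above 0, and the intervals of the other 7 members include 0 in both fits. The intervals are not adjusted for the features tested or for the choice of the family by these values. The adjusted p of NBPF14 by limma was 0.9999 and 0.7196.

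Reads of NBPF14 were set beside those of the other 9 members. NBPF14 took 32.18, 29.74 and 28.79 RPM (recovered reads scaled by library depth but not by length) in siGFPT2 and 15.96, 16.35 and 20.99 in siNC. The other 9 members together took 218.4, 152.6 and 217.5 RPM in siGFPT2 and 222.1, 235.5 and 123.2 in siNC. Between siGFPT2 1 and 3 and siNC 1 and 2, the NBPF14 mean differed by 14.33 RPM and that of the other members by -10.85, with siNC 1 close to the siGFPT2 libraries and siNC 2 above them. Between siGFPT2 2 and siNC 3 both quantities were higher in siGFPT2 2. That comparison has 1 library a group. Whether reads moved between copies was not tested. The sum of all 10 members was 33.36, 24.10 and 32.87 FPKM in siGFPT2 and 32.46, 34.58 and 19.31 FPKM in siNC, a ratio of group means of 1.05 that ran from 0.898 without siNC 3 to 1.16 without siNC 2.

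NBPF14 made up 12.84%, 16.31% and 11.69% of the reads of the 10 members in siGFPT2 and 6.705%, 6.49% and 14.55% in siNC. On this within-library measure the groups overlapped, because the other copies dropped in siNC 3 while NBPF14 did not. The FPKM ratio of NBPF14 to NBPF15 did likewise, at 0.336, 0.433 and 0.296 in siGFPT2 and 0.157, 0.153 and 0.407 in siNC. Ratios of the other tested members to NBPF15 varied less. That of NBPF12 was 0.432 to 0.493 in siGFPT2 and 0.444 to 0.527 in siNC. That of NBPF3 was 0.440 to 0.477 in siGFPT2 and 0.442 to 0.517 in siNC, and that of NBPF11 0.323 to 0.357 and 0.309 to 0.450. Within siNC, the ratios of tested members were highest in siNC 3, as for NBPF14, except that of NBPF1, which was lowest there.

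Likeness in sequence did not go with likeness in profile where NBPF14 was concerned. NBPF10 and NBPF14 share 75.7% of the words of NBPF10, the largest share of the 36 pairs among 9 members (NBPF19 left out for its few reads), yet their profiles were 0.496 apart. NBPF10 was 0.101 to 0.21 from the 7 members other than NBPF14. NBPF3 shares 2.1% of its words with NBPF9, and their distance was 0.075. Among the pairs without NBPF14, 7 that share under 10% of the smaller word set had distances of 0.075 to 0.169 (median 0.096). The 6 that share 10% to 30% had 0.133 to 0.269 (median 0.216), the highest median of the 3 classes, and the 15 that share at least 30% had 0.02 to 0.185 (median 0.118). All 7 pairs of the lowest class include NBPF3, and all 6 pairs of the middle class include NBPF1. The classes therefore cannot be told apart from these single genes, and no relation of shared sequence to profile is read from their medians. These are descriptions of 6 libraries in which the same members recur across pairs.

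**Figure D4:**
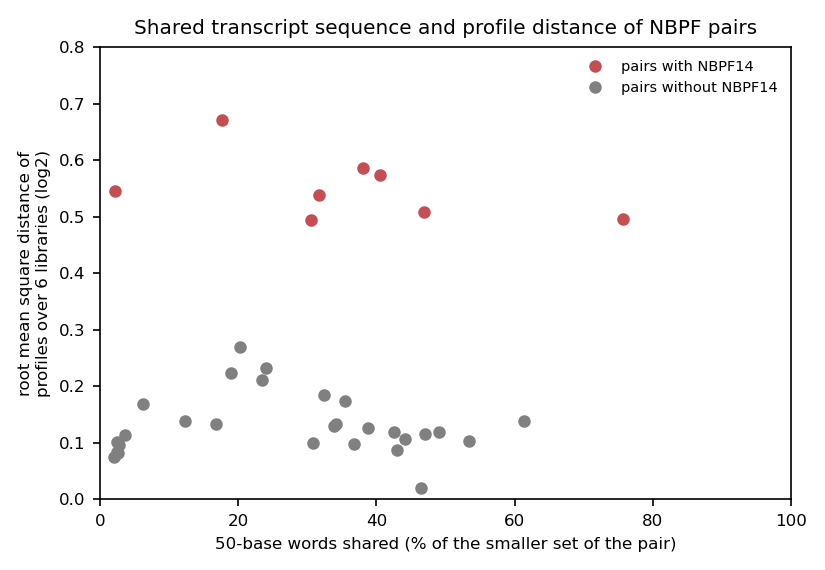
Share of 50-base transcript words that the members of a pair have in common, in percent of the smaller set (horizontal axis), and root mean square distance of their log2 profiles over 6 libraries (vertical axis), for 36 pairs of 9 members. Pairs with NBPF14 (red) lie at 0.493 to 0.671 over the whole range of shared sequence, and pairs without it (grey) at 0.02 to 0.269.

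Other NBPF genes and their neighbours were counted for context, with 0 called in any of these lists against the 0% of all features. Of 13 other NBPF genes in the table, 2 had a mean of at least 1 FPKM. NBPF26 stood at 1.39, 0.763 and 1.47 FPKM in siGFPT2 and at 1.53, 1.70 and 0.801 FPKM in siNC, with the dip of the abundant copies. NBPF2P, a short pseudogene beside NBPF3, stood at 2.73, 3.00 and 2.59 FPKM in siGFPT2 and at 3.08, 3.32 and 2.96 FPKM in siNC, without it. The groups overlapped in both genes, unlike in NBPF14. NOTCH2, the parent of the NOTCH2NL copies, was the only member of its list tested. It stood at 8.20, 3.83 and 7.85 FPKM in siGFPT2 and at 9.37, 9.61 and 2.89 FPKM in siNC. Its dip was deeper than that of any NBPF gene described here. The 4 NOTCH2NL genes in the table stayed at or below 0.0989 FPKM in all libraries.

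Among the remaining lists, other multi-copy genes of the region, led by SRGAP2D, had a median log2 fold change of 0.01 over 11 tested members (6 above and 5 below 0, 0 without overlap), and single-copy genes of the region, led by TXNIP, had 0.02 over 12 (6 and 6, 0 without overlap). The median over all features was 0.03. A list drawn up as nuclear-retained RNAs, led by SRSF5 and DDX17, had 0.11 over 15 tested members, though retention was not measured here. Of the 15, 14 lay above and 1 below 0, where 38.6% of all features tested lay below 0. The groups did not overlap in 2 of the 15, against 3.53% of all features. These were SRSF5, a splicing factor, and MALAT1, a long non-coding RNA of nuclear speckles. MALAT1 stood at 22.56, 16.36 and 23.23 FPKM in siGFPT2 and at 13.64, 14.29 and 11.79 FPKM in siNC, a log2 difference of 0.63. It was lowest within each group in siGFPT2 2 and siNC 3, unlike NBPF14.

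The features closest to the family were found among 6779 that are no NBPF gene and have a mean of at least 5 FPKM. The nearest to the mean profile of the tested members were TRIM24 (distance 0.012), AVL9 (0.025), STRIP2 (0.029), TAOK3 (0.03) and GPR107 (0.03). TRIM24, a chromatin reader and transcriptional cofactor, stood at 11.06, 7.907 and 10.86 FPKM in siGFPT2 and at 10.21, 11.06 and 6.444 FPKM in siNC. Its low libraries were siGFPT2 2 and siNC 3, which follows from the search for this profile. The nearest to NBPF14 alone, a search added after its values were seen, were LSM12P1 (0.174), TFB2M (0.234), SYTL3 (0.256), IFIT1 (0.259) and DHFRP1 (0.261). These distances were larger than those of the family. The family profile is a mean over 8 members, NBPF14 among them, and that of NBPF14 is a single gene, so the distances are not like measures. LSM12P1, a pseudogene of LSM12, stood at 26.13, 20.86 and 27.12 FPKM in siGFPT2 and at 14.22, 14.29 and 14.16 FPKM in siNC. Its groups did not overlap, but it was chosen for its likeness to NBPF14, so nothing is read from that.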

How the data were processed

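The table deposited by the authors holds FPKM values, with genes in rows and libraries in columns. HISAT2, featureCounts and DESeq2 are named in the submitters' processing notes, without versions; build, annotation, strand and the treatment of reads that match several genes are not given there or in the labels. Symbols came from a table of gene names, and positions, transcripts and exon lengths from GENCODE 29. Whole reads were recovered from the FPKM steps for 36979 of 36981 features above 0 (tolerance 0.0001 reads), with the GENCODE 29 exon length where it fitted and otherwise the smallest length that did, which can be too short. Among members, 6 had the GENCODE 29 length and 4 another (NBPF14 had 11985 bases, against 12116 in GENCODE 29).

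The 2 groups were compared by the two-sided moderated test of limma 3.58.1 (R 4.3.3). It used log2 values after 0.1 FPKM was added, modelled the trend of variance with level, had no covariates, and covered features averaging 1 FPKM or more, adjusted by Benjamini-Hochberg at 0.05. Protein identity was planned but not run, since no protein sequences were at hand; promoter windows were aligned with Biopython 1.88 and motifs were not searched beyond CpG. The members, lists and the libraries left out were chosen with earlier results of these data known. Named were all members, other NBPF genes with a mean of at least 1 FPKM, the 5 features nearest in profile and up to 3 of the most abundant members of each list; GPR89A, GPR89B and the NOTCH2NL genes were chosen after their values were seen.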

Additional observations from a re-analysis of the deposited data

How the results depend on the processing

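With each alternative tried, 0 features and 0 members were called, and the log2 fold change of NBPF14 stayed above 0 wherever it was tested. It was 0.508 with a pseudocount of 1 FPKM, and 0.913 and 0.914 with limma-voom without siGFPT2 2 and siNC 3 (library size over all reads, and over the features tested, an alternative added after seeing the data). The adjusted p of NBPF14 was lowest in those 2 fits, at 0.0906 and 0.0964, and ran up to 1 elsewhere. Leaving out 1 library gave 0.67 to 0.856. The median over members, 0.06 with all libraries, ran from -0.234 without siNC replicate 3 to 0.235 without siNC replicate 2, and the ratio of summed FPKM from 0.898 without siNC replicate 3 to 1.16 without siNC replicate 2. Samples with the same replicate number did not deviate together in every pair (correlations of 0.473, -0.719 and -0.57 over 12896 features). With the replicate block, 0 features were called and NBPF14 had 0.738 (95% interval 0.194 to 1.281). At a minimum mean of 5 FPKM only NBPF15 and NBPF9 were tested. Depth limits NBPF19, with 0 to 8 reads per library.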

Other observations

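A pair of duplicated neighbours, GPR89A and GPR89B, named after their values were seen, varied between libraries in a way unlike the NBPF copies. GPR89A stood at 1.947, 1.433 and 1.563 FPKM in siGFPT2 and at 1.496, 1.601 and 3.737 FPKM in siNC. GPR89B stood at 0.8273, 1.62 and 2.627 FPKM in siGFPT2 and at 1.517, 2.925 and 0.9788 FPKM in siNC. In siNC 3 GPR89A was at its highest while GPR89B was below the other siNC libraries, whereas NBPF9 and NBPF15 kept nearly 1 ratio in all 6 libraries. The groups overlapped for both genes, and how reads were divided between them was not tested.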
